A study of Mus musculus with 12 samples.

Results

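RNA polymerase I (Pol I) is the enzyme that transcribes the ribosomal RNA (rRNA) genes in the nucleolus. The genes described here are 10 genes of its transcription machinery, namely the initiation factor genes Rrn3, Ubtf, Taf1a, Taf1b and Taf1c and the subunit genes Polr1a, Polr1b, Polr1c, Polr1d and Polr1e. All probes that the platform annotation pairs with one of these symbols were taken, which gave 21 of 45135 probes and 10 of 19031 named genes. RNA from hippocampi of 6 mutants (TIF-IA CaMKCreERT2) and of 5 controls, all C57Bl/6N mice, was measured on Illumina MouseWG-6 v2 BeadChips, on which a probe's signal is the mean brightness of its beads. The mutants are homozygous for a floxed Rrn3 allele and carry a tamoxifen-inducible Cre recombinase under the Camk2a promoter, which is active in forebrain excitatory neurons, so that glia, vessels and most inhibitory neurons in the same tissue keep the gene. The controls are floxed littermates without Cre according to the methods and wild type according to the sample labels. Animals of both genotypes received tamoxifen at 2 months of age, and tissue was taken 4 weeks later.

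Pol I is recruited to the rRNA gene promoter by selectivity factor SL1, a complex of the TATA-binding protein with TAF1A, TAF1B, TAF1C and TAF1D, and by the upstream binding factor UBF, the product of Ubtf. TIF-IA, the product of Rrn3, binds the polymerase itself and contacts SL1, so that only Pol I carrying TIF-IA can start transcription. Growth factor and nutrient signals are known to regulate rRNA synthesis largely through phosphorylation of TIF-IA. POLR1A and POLR1B are the largest subunits and form the catalytic centre, POLR1C and POLR1D are also subunits of RNA polymerase III (Pol III), and POLR1E is the PAF53 subunit, which is involved in initiation.

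Because Rrn3 was the gene the results turned on, the 250 bases before its annotated start are shown, beside those of the Pol I subunit gene Polr1a for comparison. Both were taken from RefSeq with build GRCm38.p6, on the plus strand, Rrn3 at chr16:13780449-13780698 and Polr1a at chr6:71908803-71909052. Capitals mark matches to CACGTG in Rrn3 and to CCAAT in Polr1a.
Rrn3: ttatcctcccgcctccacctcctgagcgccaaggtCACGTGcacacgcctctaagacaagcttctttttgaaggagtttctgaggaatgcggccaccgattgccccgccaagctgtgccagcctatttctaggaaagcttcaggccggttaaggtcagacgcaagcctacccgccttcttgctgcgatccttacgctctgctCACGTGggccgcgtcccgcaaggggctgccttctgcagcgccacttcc
Polr1a: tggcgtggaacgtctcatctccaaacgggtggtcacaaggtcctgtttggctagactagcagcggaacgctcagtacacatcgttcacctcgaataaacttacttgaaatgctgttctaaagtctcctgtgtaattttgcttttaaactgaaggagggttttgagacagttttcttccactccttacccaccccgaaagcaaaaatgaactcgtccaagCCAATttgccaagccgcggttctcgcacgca
All 10 genes had at least 1 start in the RefSeq table, 17 starts in all. CACGTG, the E-box bound by MYC and related factors, was searched on both strands and was found in 1 of the 17 windows, that of Rrn3, which held it at 2 places. It was present in 6.02% of 32851 such windows of all genes. CCAAT was found in 6 of the 17 windows, of 4 of the 10 genes (33.8% of all windows), and GGGCGG in 9, of 5 genes (32.7%). TATAAA was found in none, 0 (12.4%), and the CArG box, the motif known for binding serum response factor, in none, 0 (1.47%). Ubtf alone gave most of the GGGCGG windows, and the windows of Taf1a overlap, so the windows are not independent. These matches describe the letters in these windows and were not related to the signals.

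The median deposited intensity per array lay between 82.8 and 107.02, and 19193 to 21889 probes had a detection p-value under 0.01, with the ranges of both genotypes overlapping. Mutant 6 was measured on 2 arrays, whose values were averaged. They had a correlation of r = 0.992 over 20966 detected probes, against 0.964 to 0.982 between animals of one genotype. Of the 21 probes, 14 were above background (detection p under 0.01) in every animal and 16 in at least 1 animal. The other 5 were not above background in either genotype and carry no fold, namely 1 of 2 probes of Rrn3 (ILMN_2460879), 1 of 2 of Taf1a (ILMN_2568415), 1 of 5 of Polr1a (ILMN_1235695), 1 of 2 of Polr1b (ILMN_1257957) and the single probe of Taf1b (ILMN_2739952). Taf1b, whose product is an SL1 subunit related to the TFIIB family, was therefore not measured here, and 9 genes were. Neuronal markers were present in the tissue as labelled, with 7 of 8 genes above background in at least 1 animal. So were 5 of 5 markers of CA1, 5 of 5 of CA3 and 4 of 6 of the dentate gyrus, where the probe of Calb1 was at background and Dsp had no named probe. Among the neuronal genes the probes of Snap25 were at background. Tubb3 was detected in 2 mutants and 1 control only, and Neurod6 in 1 mutant and 2 controls.

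Of the Pol I genes, only Rrn3 differed between genotypes at the threshold that the study used (limma, unadjusted p under 0.001), with 1 of its 2 probes. It was lower in every mutant. This was 1 of 21 member probes, against 0.0842% of all probes on the array (38 of 45135) of which 14 (0.031%) were lower and 24 (0.0532%) higher in the mutants. No member probe, 0 of 21, reached an adjusted p under 0.05 after Benjamini-Hochberg adjustment in limma over all probes, which 1 probe on the array did (0.00222%), and 1 of the 21 had an unadjusted p under 0.05, against 3.95% of all probes.

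The detected Rrn3 probe (ILMN_2729771) gave log2 signals of 8.37, 8.39, 8.25, 8.35 and 8.55 in the controls. In the 6 mutants the lowest log2 signal was 7.71, the median 7.85 and the highest 7.99. All mutants thus lay below all controls, with a gap of 0.26 between the highest mutant and the lowest control. Over the whole array 0.157% of probes were separated in this direction, and 0.143% of those detected in at least 5 animals. The control mean was 8.38 ± 0.11 (SD, n = 5) and the mutant mean 7.84 ± 0.10 (SD, n = 6). The log2 fold change was -0.55 (standard error 0.07, 95% interval -0.70 to -0.39), which is a mutant to control ratio of 0.685 (0.617 to 0.761). The unadjusted limma p was 6.7e-06 and the adjusted p 0.152 (0.0537 to 0.998 over 23 alternatives), and the exact two-sided permutation test gave p = 0.00433, the smallest that 6 animals against 5 allow. Rrn3 ranked 2 of all 45135 probes by p and 1 among those lower in the mutants, although 150 of the 20966 detected probes had a larger fall.

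**Figure D1:**
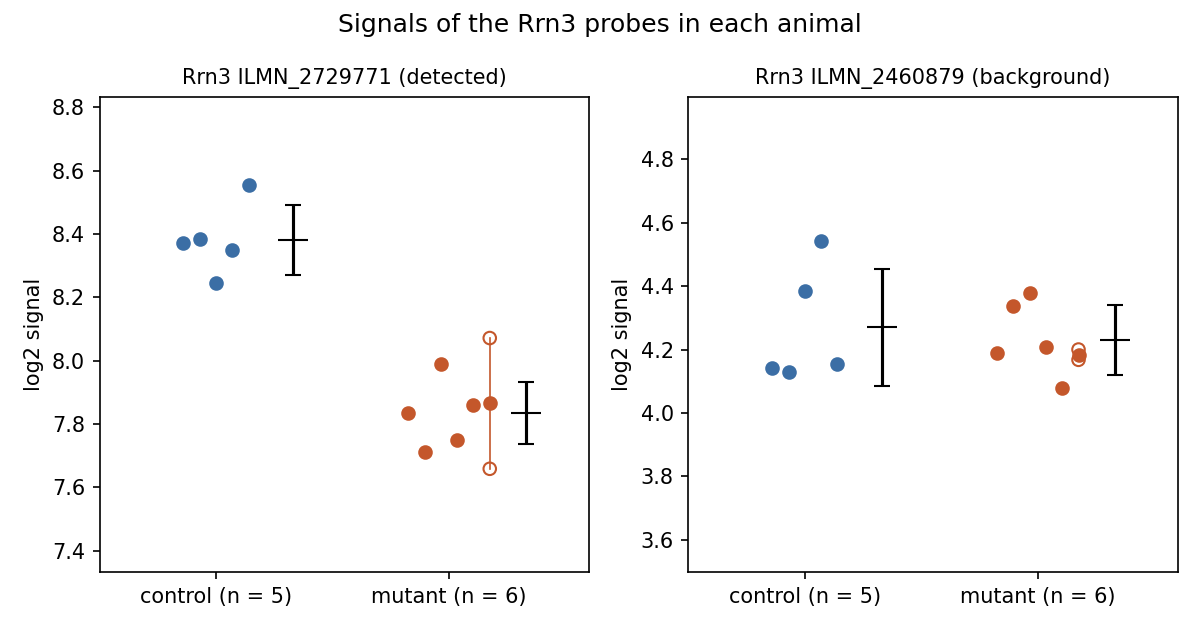
Log2 signal (vertical axis) of both Rrn3 probes in each control (blue) and mutant (orange) animal, with black bars for mean and SD between animals. Open circles joined by a line are the 2 arrays of mutant 6. At the detected probe all 6 mutants lie between 7.71 and 7.99 and all 5 controls at 8.25 or above, while the other probe lies at the background level in both genotypes.

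The hippocampus holds cells in which this Cre is not expressed, and in bulk tissue fewer cells of a type and less RNA per cell cannot be told apart. The position of the probe relative to the deleted exon was not known here, and a probe outside the deleted part would not test the recombination itself. The remaining signal of the probe does not give the share of cells that recombined. Animals of one genotype lay close together, with an SD within genotype of 0.104, and 2.09% of the 16054 probes detected in every animal had a smaller one. In contrast, the 2 arrays of mutant 6 gave 8.07 and 7.66, a difference of 0.41 that was larger than that SD and larger than in 89.6% of these probes (median 0.158). Both arrays lay below the lowest control, and the log2 fold change was -0.51 with only the first array and -0.58 with only the second.

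Animals carry numbers in the 200s (3 mutants, 4 controls) or 300s (3 mutants, 1 control), the meaning of which the labels do not give. The Rrn3 log2 fold change was -0.49 (standard error 0.09) among the 200s and -0.73 (standard error 0.11) among the 300s. The difference between these values (interaction -0.24, limma) rests on 1 control in the 300s, so whether the series differ could not be judged.

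Marker genes of cell types and hippocampal fields were read beside the Rrn3 value, with the median log2 fold change over brightest probes above background. It was -0.02 over 7 neuronal markers, -0.15 over 5 CA1 markers and -0.27 over 5 CA3 markers (-0.14 with the deposited values and -0.15 without background correction). Of the 7 neuronal markers 3 had positive and 4 negative values, the lowest being Neurod6 (-0.29), detected in 1 mutant and 2 controls. Camk2a gave -0.02 (standard error 0.19) at its brightest probe. Another Camk2a probe detected in every animal (ILMN_2677393) gave -0.46 (standard error 0.25). All 4 detected dentate granule cell markers of 6 listed had negative values (median -0.54), of which 1, Lct, had an unadjusted limma p under 0.05. The value of Pdzd2 was close to 0 (-0.005, standard error 0.20). Other detected probes of these genes gave 0.13 for Maml2 (ILMN_1242011) and -0.33 for Prox1 (ILMN_2894355). The mean of the centred log2 signals of the 4 markers ranged from -1.004 to 0.14 in the mutants and from -0.19 to 0.61 in the controls. The 5 oligodendrocyte markers all had positive values (median 0.26), as did the 4 choroid plexus markers (median 0.87, and 0.55 with the deposited values), whose centred level ranged from -2.21 to 2.25 in the mutants and from -2.29 to 2.06 in the controls. The signs of these 3 medians were the same with no background correction, with the deposited log2 values and with cyclic loess. Astrocyte markers had a median of -0.09, microglial markers of -0.10, endothelial markers of 0.10 (0.037 with the deposited values) and thalamic markers of -0.30. Of the 6 microglial markers 1 had a positive and 5 had negative values, the lowest being P2ry12 (-0.93, standard error 0.45). No probe of these lists, 0, had an unadjusted p under 0.001, and the part of tissue composition in the Rrn3 value was not tested.

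The other factors that assemble on the rRNA gene promoter had no probe past the threshold, and their animals overlapped between genotypes. The brightest probe of Ubtf (ILMN_1255927) gave log2 signals of 9.15, 9.52, 9.26, 9.30 and 9.18 in the controls, and 8.93, 9.25 and 9.41 as the lowest, median and highest mutant. The groups overlapped, with the lowest mutant below all controls and control 2 above all mutants. The log2 fold change was -0.05 (standard error 0.09, limma, adjusted p = 0.996), and its 95% interval of -0.25 to 0.16 corresponds to ratios of 0.839 to 1.12. The next probe of Ubtf (ILMN_1235921) gave 0.14 (standard error 0.13), which was 0.055 without control 3 and 0.062 without mutant 5. The third (ILMN_2506061) was detected in 1 mutant only, mutant 2 at a log2 signal of 5.15, and in 0 of 5 controls, and since it rests on that 1 animal no fold is given for it.

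Of SL1, Taf1a was measured well. Its detected probe (ILMN_2640188) gave 7.10, 8.12, 7.44, 7.55 and 7.34 in the controls, and the mutants ranged from 7.40 to 7.83 with a median of 7.56. All mutants lay within the span of the controls, whose highest animal, control 2, stood apart from the rest. The log2 fold change was 0.10 (standard error 0.16, 95% interval -0.26 to 0.45), and without control 2 it was 0.25. Taf1c, an SL1 subunit, was at the edge of detection, with its only probe (ILMN_2653808) above background in 2 of 6 mutants and 2 of 5 controls. Its control values were 4.59, 4.41, 5.38, 4.40 and 4.81, and the mutants ranged from 4.22 to 4.77 with a median of 4.59. The high value of control 3 carried most of the fold change of -0.19 (standard error 0.17), which was -0.02 without that animal and -0.058 with the deposited log2 values.

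The genes of the catalytic subunits had positive fold changes at their brightest probes, which did not pass the threshold. Polr1a (ILMN_2700107) gave log2 signals of 9.37, 8.95, 9.38, 9.43 and 9.18 in the controls, and the mutants ranged from 9.31 to 9.68 with a median of 9.45. Of the 6 mutants, the lowest lay inside the control range and the highest above it. The log2 fold change was 0.21 (standard error 0.10, 95% interval -0.01 to 0.43, limma p = 0.0620, adjusted p = 0.996, exact two-sided permutation p = 0.0866), and without control 2, the lowest animal, it was 0.13. The 3 other detected probes of Polr1a gave -0.08 (ILMN_2620069), 0.10 (ILMN_1230860) and -0.05 (ILMN_2836664). Each interval included 0, as did that of the brightest probe, and the difference between the probes was not tested.

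Polr1b (ILMN_2723483) had the widest spread within genotype of the 14 probes of the genes described here that were detected in every animal. Its controls gave 6.18, 5.81, 6.17, 6.71 and 6.44, and its mutants ranged from 6.00 to 6.97 with a median of 6.52. The 3 mutants numbered in the 300s gave 6.97, 6.85 and 6.78, above the other 3 and above all controls. The pooled log2 fold change was 0.25 (standard error 0.21, 95% interval -0.21 to 0.71), whereas it was 0.13 without control 2, 0.15 without mutant 4, 0.14 with the deposited values, -0.07 within the 200s and 0.43 within the 300s, where there is 1 control. The difference between the series (interaction 0.50, limma) rests on that 1 control, so whether they differ could not be judged.

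Polr1e, the gene of the PAF53 subunit, was measured by 1 probe (ILMN_2709047). Its controls gave 7.92, 7.32, 7.29, 7.58 and 7.67, and its mutants ranged from 7.43 to 8.05 with a median of 7.83. The groups overlapped, and control 1 lay above the mutant median. The log2 fold change was 0.25 (standard error 0.13, 95% interval -0.04 to 0.55, limma, adjusted p = 0.996, exact two-sided permutation p = 0.113), a ratio of 1.19 (0.972 to 1.46).

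**Figure D2:**
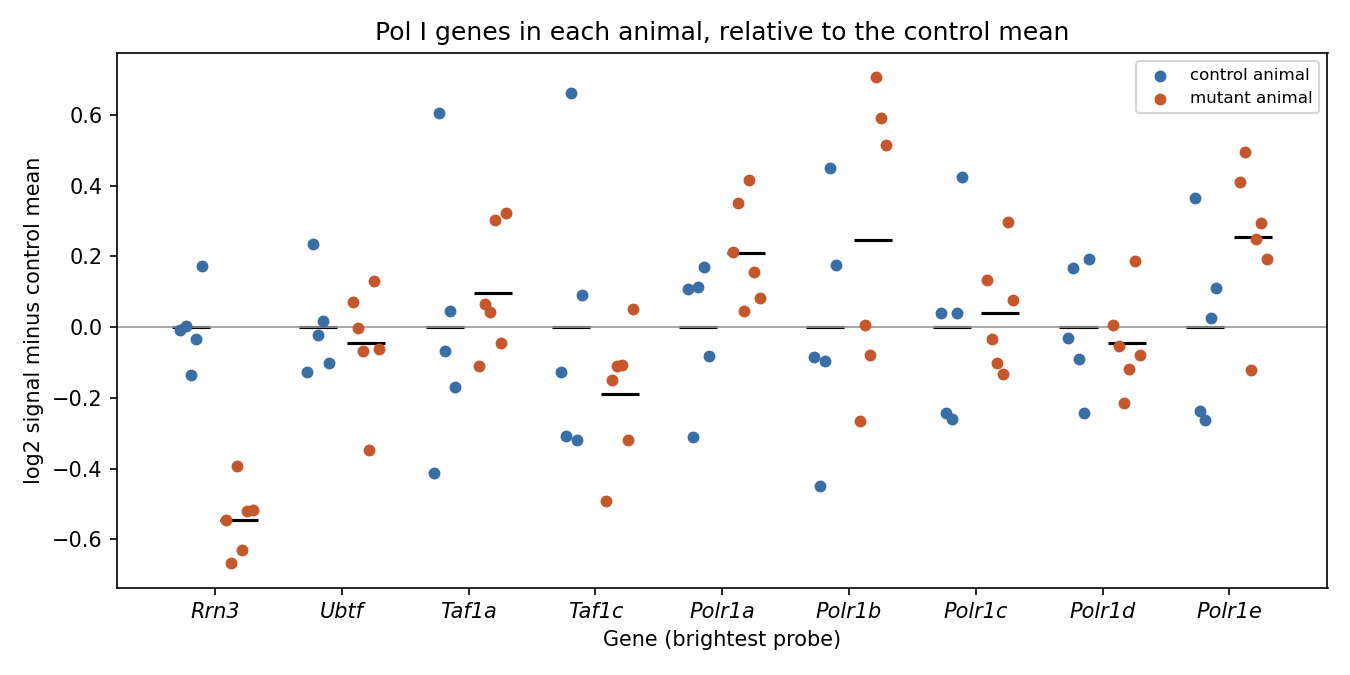
Log2 signal at the brightest detected probe of each of the 9 measured Pol I genes (horizontal axis), as the difference from the control mean, in each control (blue) and mutant (orange) animal; black lines are group means. The genotypes separate for Rrn3 only (mean -0.55), and overlap for the other 8 genes, whose means lie between -0.19 for Taf1c and 0.25 for Polr1e.

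The genes of the subunits that Pol I shares with Pol III had pooled values near 0. Polr1c (ILMN_1252845) gave 9.12, 8.84, 8.82, 9.12 and 9.51 in the controls, and its mutants ranged from 8.95 to 9.38 with a median of 9.11, inside the control range. Its log2 fold change was 0.04 (standard error 0.13, 95% interval -0.24 to 0.32). It was 0.11 within the 200s and -0.34 within the 300s, where there is 1 control. With that 1 control, whether the series differ (interaction -0.45, limma) could not be judged. Polr1d was the brightest probe of the set (ILMN_2634720), with 10.60, 10.80, 10.54, 10.39 and 10.83 in the controls and 10.42 to 10.82 (median 10.57) in the mutants. The groups overlapped over almost their whole range, and the log2 fold change was -0.04 (standard error 0.09, 95% interval -0.25 to 0.16). Its other probes gave -0.06 (ILMN_2680066) and 0.05 (ILMN_1245284), the latter paired by the annotation with a different transcript of the gene.

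**Figure D3:**
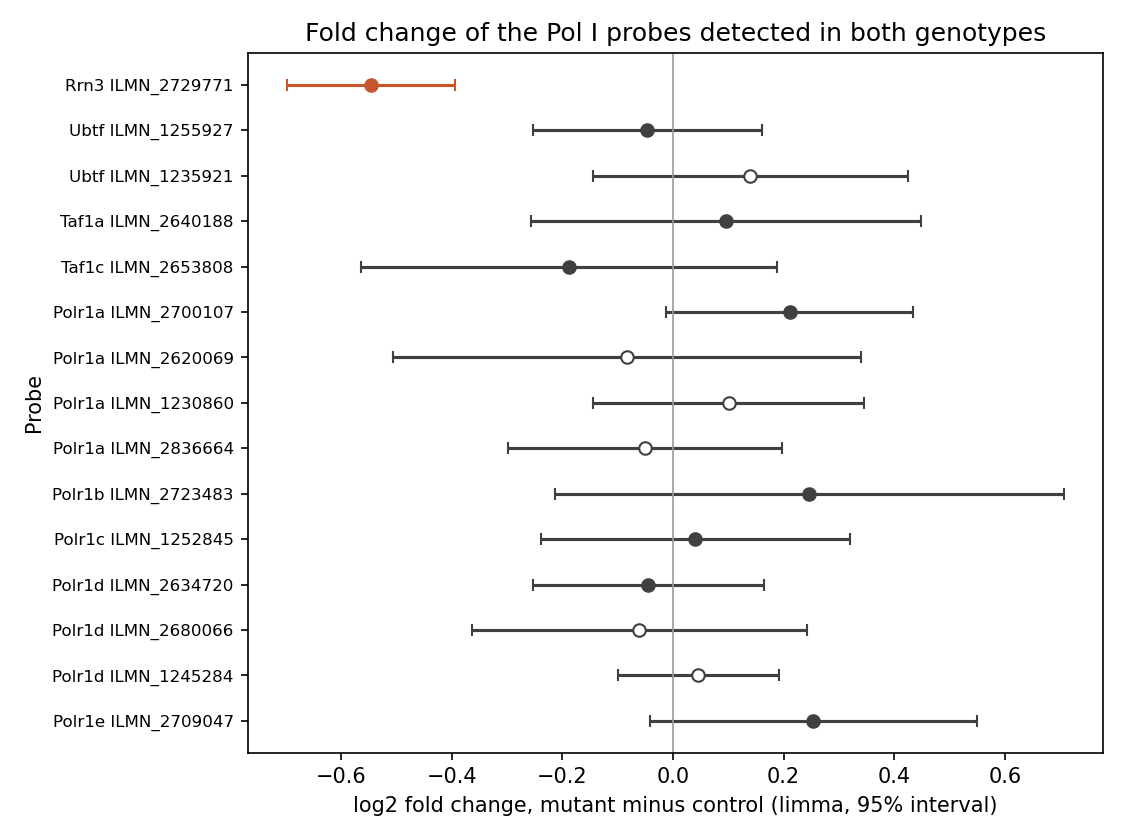
Log2 fold change (horizontal axis, mutant minus control, limma) with its 95% interval for each of the 15 Pol I probes detected in both genotypes (vertical axis); filled points are each gene's brightest probe and open points its other probes. Only the interval of Rrn3 (-0.70 to -0.39, orange) lies away from 0.

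An unadjusted p above the threshold for one gene and below it for another does not show that they differ, so the change of Rrn3 was set against that of each of the 8 other measured genes. For this the difference between both log2 signals was taken in each animal and compared between genotypes (exact two-sided permutation tests, adjusted over the 8 comparisons). The Rrn3 change was lower than that of Ubtf by 0.50, of Polr1c by 0.59, of Polr1d by 0.50 and of Polr1a by 0.76 on the log2 scale, with every mutant below every control in these 4 comparisons (6 of 6, exact permutation p = 0.00433, adjusted p = 0.00866 each). It was lower than that of Polr1e by 0.80 (adjusted exact permutation p = 0.0139, 5 of 6 mutants below all controls), of Polr1b by 0.79 (adjusted exact permutation p = 0.0173, 4 of 6) and of Taf1a by 0.64 (adjusted exact permutation p = 0.0198, 3 of 6). Against Taf1c, which was near background, the difference of -0.36 did not pass (adjusted exact permutation p = 0.113, 0 of 6), and without control 3 it was -0.56 (adjusted exact permutation p = 0.0152). These 8 comparisons share the Rrn3 values and are not independent of each other.

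Over the 8 genes other than Rrn3, 5 log2 fold changes were positive and 3 negative, with a median of 0.07 and a range of -0.19 to 0.25. Over all 14452 named genes above background the median was 0.01, and 7642 were positive and 6810 negative. The split of the 8 genes moved between 3 and 6 positive when single animals were left out or the animal number series was taken into account, so no direction is given for the group. The spread of the 14 probes detected in every animal was moderate, with an SD within genotype of 0.097 to 0.377 (median 0.207, against 0.265 over all such probes). The 2 arrays of mutant 6 differed by less than that SD at 11 of the 14 probes.

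Probes of one gene were also compared across the 11 animals, as 10 pairs among the probes of Ubtf, Polr1a and Polr1d. Pearson's r ranged from -0.15 to 0.50, and no pair, 0 of 10, passed a permutation test after adjustment (adjusted permutation p of 0.509 to 0.946). The highest was the Ubtf pair, with r = 0.50 (permutation p = 0.110) and Spearman's rho = 0.39 (permutation p = 0.237), and r = 0.47 without the 2 animals farthest from the median. The fold changes of both probes had the same sign in 3 of the 10 pairs. The pairs of Polr1a, and those of Polr1d, share probes and are not independent. The same shares over other genes on the array were not computed, so these counts are not read as a trait of these genes.

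The remaining genes of the machinery and of its regulation were taken as lists, at the brightest probe above background of each gene. Among 11 further genes of Pol I and its promoter factors, 8 had positive and 3 negative values (median 0.07), and none, 0 of 11, had an unadjusted limma p under 0.05, against 5.29% of all named genes. Those with the smallest p were Cavin1, whose product (also called PTRF) releases Pol I transcripts (0.19, standard error 0.17), and Znrd1, a small Pol I subunit (0.07, standard error 0.07), both with a limma adjusted p of 0.996. Cd3eap, the partner of POLR1E, gave -0.13 (standard error 0.30), Twistnb, a Pol I stalk subunit, 0.09 (standard error 0.18), and the SL1 subunit gene Taf1d 0.02 (standard error 0.14). Their other probes, detected in every animal, gave 0.12 for Cd3eap (ILMN_1253503), 0.16 for Twistnb (ILMN_1231779) and -0.24 for Taf1d (ILMN_3162771). The values of Cd3eap and Taf1d thus changed sign with the probe. The values at the brightest probes of these genes were smaller than those of Polr1a, Polr1b and Polr1e at theirs, a difference that was not tested.

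Of 9 subunit genes of Pol III, 3 had positive and 6 negative values (median -0.03), a split that was 4 and 5 without background correction and with the deposited values. The smallest p were those of Polr3d (-0.30, standard error 0.15), a dim probe detected in 4 of 6 mutants, and Crcp (0.17, standard error 0.12). Of the Pol II subunit genes that are not shared with Pol I, 3 were above background, and all 3 had positive values (median 0.10), among them Polr2g (0.13) and Polr2j (0.10). The shared subunits were counted with the Pol I genes above, and of these Polr2e gave -0.05. Of 11 genes of the kinases and phosphatases that act on TIF-IA or rRNA synthesis, 5 had positive and 6 negative values (median -0.05). Mtor, the kinase of nutrient signaling, gave -0.19 (standard error 0.10), and Ppp2cb, a catalytic subunit of protein phosphatase 2A, gave 0.13 (standard error 0.08). The other Mtor probe detected in every animal (ILMN_2563765) gave -0.008 (standard error 0.17). Of 9 chromatin factors of the rRNA genes, 5 had positive and 4 negative values (median 0.03), with the histone demethylase genes Kdm2b at -0.20 and Kdm2a at -0.09. In these 5 lists no gene, 0, passed an unadjusted p under 0.05 in limma at its brightest probe. At other probes detected in every animal, Mapk8 (ILMN_1239233, -0.42, standard error 0.18) and Polr3k (ILMN_1215772, -0.23, standard error 0.10) passed it. Probes of Mtor and Kdm2a at or near background passed it too, against 3.95% of all probes. At the brightest probes, Mapk8 gave 0.11 (standard error 0.13), of the other sign, and Polr3k gave -0.07 (standard error 0.15). Apart from Polr2e, Cd3eap, Twistnb, Taf1d, Mapk8 and Polr3k, the genes named here have the smallest p of their list at the brightest probe.

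**Figure D4:**
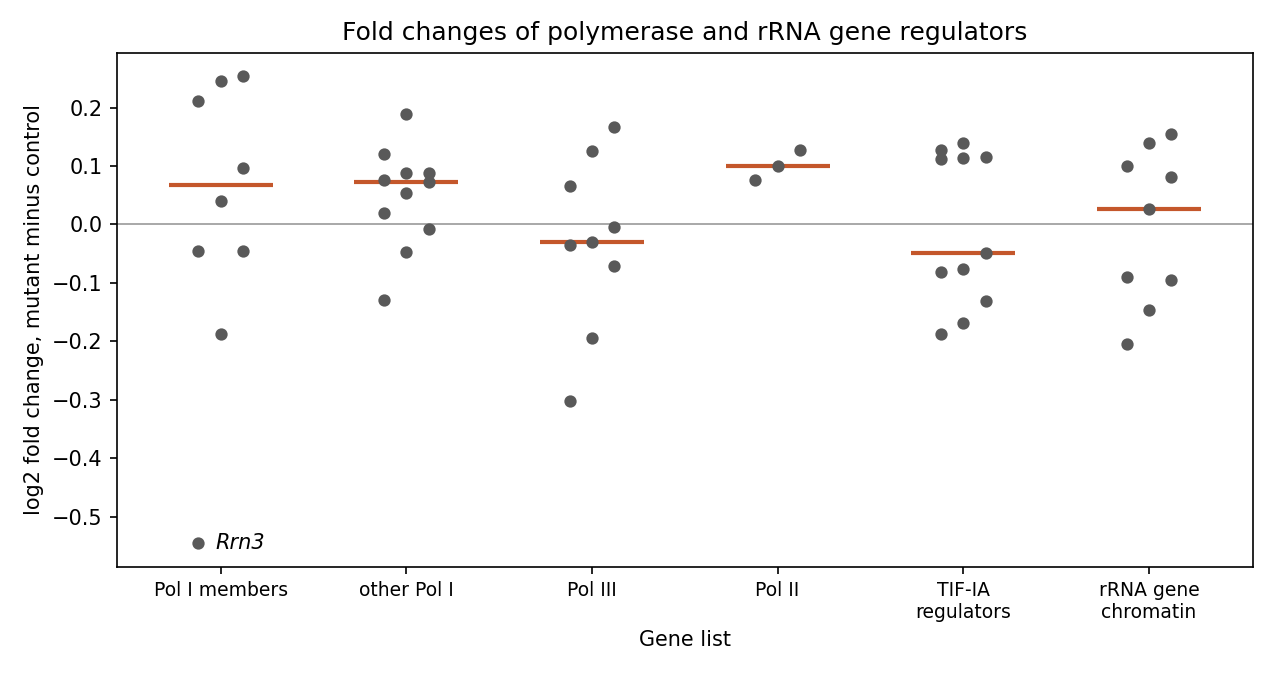
Log2 fold change (vertical axis, mutant minus control) of each gene above background, 1 point per gene at its brightest probe, in the Pol I genes described here and in 5 further lists (horizontal axis); orange lines are list medians, for the first list without Rrn3. Medians lie between -0.05 and 0.10, and Rrn3 at -0.55 is the lowest point.

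The probes whose pattern over the 11 animals was most like that of Rrn3 were found by the root mean square difference of log2 signals centred on each probe's mean, over 13748 named probes detected on every array (median difference 0.377). They were single probes of Swap70, a guanine nucleotide exchange factor (ILMN_2727273, difference 0.137), of Wdr37, a WD repeat protein (ILMN_3123826, 0.146), and of the junctophilin gene Jph1 (ILMN_2585867, 0.156), which links the plasma membrane and the endoplasmic reticulum. Their log2 fold changes were -0.48, -0.44 and -0.53. The likeness rests mainly on the step between genotypes, and the probe of Swap70 was not matched by the gene's brightest probe, which gave 0.23 (standard error 0.11). The brightest probe of Wdr37 gave -0.37 (standard error 0.13).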

How the data were processed

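The authors deposited probe intensities of 12 arrays, on a linear scale without background correction or scaling. Each came with a detection p-value that the authors deposited beside it. The authors also deposited log2 values of the same arrays (medians 6.60 to 6.64, rank correlation with the intensities at least 0.9996), which were used as an alternative; the form of background subtraction in them is unknown. The methods name limma after background subtraction and quantile normalization, with versions not given in the sources used here. Of 46089 lines, 954 without a probe name were left out. The annotation gave 1 symbol to 34773 probes, several to 18 and none to 10344.

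In R 4.3.3 with limma 3.58.1, intensities were corrected by normexp from the detection p-values (offset 16), quantile normalized and log2 transformed, and both arrays of mutant 6 were averaged. All 45135 probes were fitted (lmFit, eBayes) for the difference of mutants from controls over 11 animals, with Benjamini-Hochberg adjustment over all probes. Single values were tested exactly over 462 splits of the animals. Correlations were tested with 100000 permutations. SDs are between animals. Precision is limited by the number of arrays. The steps were also run on simulated data, where recovery was required only of changes larger than that of Rrn3. That check therefore does not cover changes of the size reported here. The members and gene lists were chosen with earlier results of these data known. Every member probe is accounted for. From each further list the 2 genes with the smallest p were named where none passed an unadjusted p under 0.001. Cd3eap, Twistnb and Taf1d, as further Pol I and SL1 subunits, were named after their values were seen. So were Polr2e, Mapk8, Polr3k, Lct, Pdzd2, Maml2, Prox1, Calb1, Dsp, Snap25, Tubb3, Neurod6, Camk2a and P2ry12, and the other probes given for genes of the further lists. Alternatives covered scaling, background, dim probes, single animals, both arrays of mutant 6, animal number series, replicate block and array weights.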

Additional observations from a re-analysis of the deposited data

How the results depend on the processing

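The Rrn3 fold change stayed negative with an unadjusted p under 0.001 in all 23 alternatives (-0.58 to -0.43 on the log2 scale), with -0.43 both with the deposited values and without background correction, and -0.55 when only probes detected in at least 5 animals were tested (limma, adjusted p = 0.964). Leaving out single animals gave -0.58 to -0.50. The 23 alternatives are not all separate checks. A detection p threshold of 0.05 does not enter the fit, so it repeated the main fold change. Animals 1 to 5 without a block are the same animals as those without mutant 6. Member probes past an unadjusted p under 0.001 numbered 1, and past an adjusted p under 0.05 0, in all 23 alternatives, while all probes past an unadjusted p under 0.001 ranged from 11 (detected probes only, 20966 tested) to 51 (without mutant 3). The median of the 8 other genes ranged from -0.032 to 0.10. Signs turned for 8 probes other than that of Rrn3, among them Polr1b, whose main value was 0.25. Within the 200s, Taf1a gave -0.043 and Polr1b -0.068, and with the number series as a block Polr1a ILMN_2620069 gave 0.020 and Polr1c -0.031. Leaving out single animals gave ranges of -0.082 to 0.014 for Ubtf ILMN_1255927, -0.0064 to 0.25 for Taf1a, -0.20 to 0.0050 for Polr1a ILMN_2620069, -0.11 to 0.018 for Polr1a ILMN_2836664, -0.025 to 0.15 for Polr1c, -0.11 to 0.0035 for Polr1d ILMN_2634720 and -0.13 to 0.020 for Polr1d ILMN_2680066. The causes were not tested. The difference between the changes of Rrn3 and Taf1c passed with no background correction (-0.37) and with the deposited values (-0.37), and ranged from -0.56 (without control 3, where it passed) to -0.28 when single animals were left out, an alternative chosen after the data were seen; the other 7 differences passed in every alternative run. The labels name no pairs, and whether replicate numbers mark pairs was not settled. Same-numbered deviations correlated at -0.05 to 0.56, over 0.1 in 3 of 5 pairs, and 3 of 5 mutants lay closest to their own number. With the replicate block over animals 1 to 5 the Rrn3 fold change was -0.55 (limma, adjusted p = 0.866), and 39 probes passed an unadjusted p under 0.001, against 32 for the same animals without it, a comparison chosen after the data were seen, and no member's call changed. Values near the background, as for Taf1c, are limited by signal over background.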
